A study of Homo sapiens with 2 samples.

Results

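The 8 genes described here mark early glial cells of the neural crest, and all 8 were found among the 33694 gene names of both count matrices. They are the receptors ERBB3 and NPR3, the secreted protein SPP1, the enzyme genes PRSS56, ECEL1 and MOXD1, the calcium-binding protein gene S100B and the myelin protein gene PMP22. They were chosen by their place in the Schwann cell lineage and, for several of them, by their measured levels, since they led the enteric neural crest cells (ENCCs) in these same data. Their excess in ENCCs is therefore given as a description only. All cells derived from H9 human embryonic stem cells. The day 10 library came from cultures attached to Geltrex during enteric neural crest induction, whose last medium held SB431542, CHIR 99021 and retinoic acid. The day 15 library came from crestospheres, floating aggregates formed from day 12 in medium with FGF2 and a higher dose of CHIR 99021. No special treatment or genetic change was recorded at either stage. Within a library the cells of 2 biological repeats were mixed and were not told apart in the files. A single library per stage allows neither a replicate check nor a test. Stage, culture format, medium and library cannot be told apart.

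Schwann cell precursors are crest cells that travel along growing nerves. They depend on neuregulin signals through ERBB3 and later give rise to Schwann cells, melanocytes and some enteric neurons and glia. Boundary cap cells are a related crest population that sits where nerve roots enter and leave the spinal cord, and PRSS56 is one of their best known marks. Enteric neural crest cells share much of this programme, SOX10 and FOXD3 included, while they populate the gut.

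The authors' classes were used: ENCC, neuro-epithelial progenitor (NEP), cranial placode (CP), non-neural ectoderm (NNE) and mesenchymal (Mes), with ENCC 1 to 4 at day 10 and ENCC 1′ to 4′ at day 15 numbered separately at each stage. The day 10 library held 9627 cells, of which 7295 were kept by the authors and 4921 were ENCCs, at a median of 6713 unique molecular identifiers (UMIs, single counted RNA molecules) per deposited cell. The day 15 library held 6320 cells, of which 5336 were kept and 4934 were ENCCs, at a median of 11770.5 UMIs. The 2 libraries shared 102 cell barcodes, and leaving those cells out changed no count of members given here. The 7 ENCC markers summed to 2060 CPM, counts per 1000000 UMIs, in ENCCs at day 10, against 1204 in CP, 295 in NEP and 212 in NNE. At day 15 they summed to 1052 CPM in ENCCs and to between 99.4 and 175 in the other classes. Among the 10 leading genes, the day 15 cluster deposited as NEP showed 2 markers of NNE beside 1 of its own, whereas CP2 showed 1 of NEP and none of CP. Therefore the other classes were not compared between stages by name. Levels are CPM of the summed UMIs of a class, with 95% Poisson intervals. Shares of cells were taken after every cell had been thinned to 3000 UMIs, with exact binomial intervals. Both kinds of interval cover counting error only.

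The ENCCs held more of nearly all 8 genes than the other kept cells. On the scale of log2(CPM + 1), 7 of 8 were at least 2-fold higher in ENCCs at day 10, where 198 genes, or 2%, of the 9895 with at least 5 CPM in either group passed the same fold. At day 15 it was 8 of 8, beside 3.4% of 10178 genes. Since these genes were selected on this contrast, nothing is read from the difference. PRSS56 and NPR3 stood at ranks 1 and 2 of all these genes at day 10, and S100B and PRSS56 at ranks 2 and 3 at day 15. The exception at day 10 was PMP22, at 10.6 CPM in ENCCs and 5.17 in the other kept cells, a log2 difference of 0.91 (0.58 to 1.23) that lay between 0.61 and 1.40 under the alternatives tried. The median log2 difference was 2.68 over the members and -0.16 over all genes at day 10, and 3.50 and -0.30 at day 15.

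**Figure D1:**
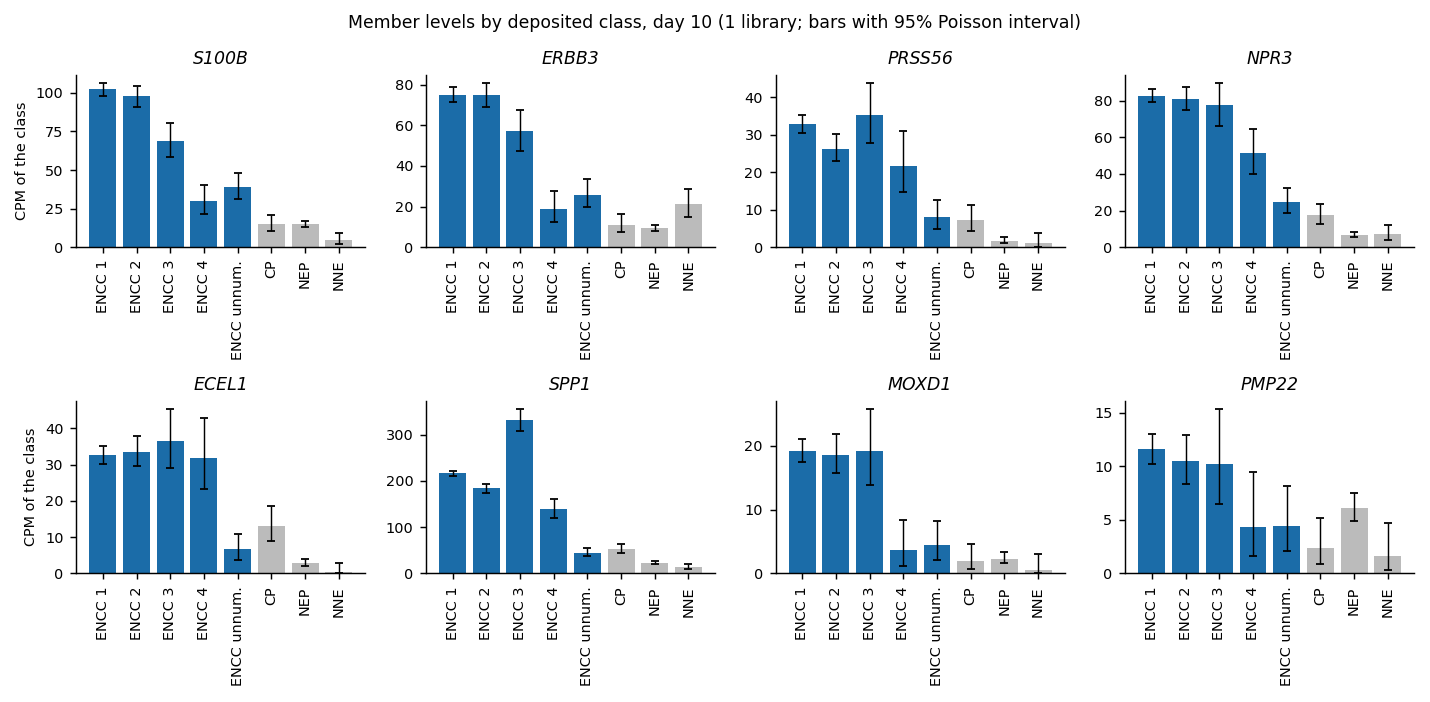
Level of each member in every deposited class of the day 10 library, in CPM on linear axes that start at 0 and differ between panels. Blue bars are ENCC subclusters and the ENCCs without a number, grey bars are the other classes, and error bars are 95% Poisson intervals. S100B, ERBB3, MOXD1 and PMP22 are low in ENCC 4, ERBB3 reaches 21.1 CPM in NNE, and PMP22 reaches 6.13 CPM in NEP.

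**Figure D2:**
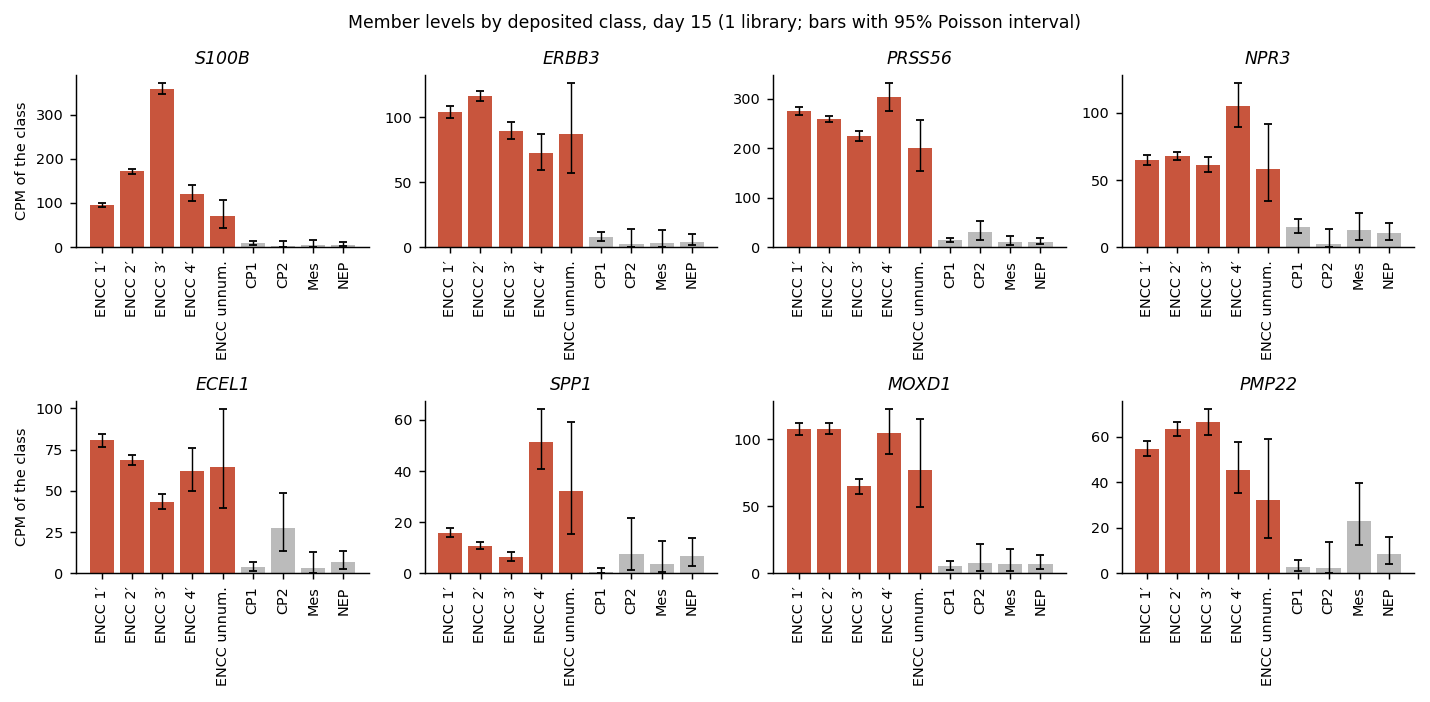
Level of each member in every deposited class of the day 15 library, in CPM on linear axes that start at 0 and differ between panels. Red bars are ENCC subclusters and the ENCCs without a number, grey bars are the other classes, and error bars are 95% Poisson intervals. S100B peaks at 359 CPM in ENCC 3′ and SPP1 at 51.5 CPM in ENCC 4′, while ECEL1 in CP2 and PMP22 in Mes stand above the other grey bars.

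ERBB3 encodes the receptor subunit through which crest and Schwann cell precursors read neuregulin, in partnership with ERBB2. The gene spans chr12:56080108-56103505 in GRCh38.p14, the build of all positions given here. Its level in ENCCs was 68.8 CPM (66.2 to 71.6) in the first library and 107 CPM (104 to 110) in the second. At day 10 it was 75.1 CPM in ENCC 1, 74.7 in ENCC 2, 57.0 in ENCC 3 and 18.8 in ENCC 4. The intervals of ENCC 1 and ENCC 2 overlapped, whereas both stood above ENCC 3, and ENCC 4 was the lowest. NNE cells held 21.1 CPM (15.02 to 28.9), which overlapped ENCC 4 and stood above the 9.40 CPM (7.87 to 11.2) of NEP. That was 30.7% (21.8 to 42.0) of the ENCC level, where the other members reached between 1.72% for ECEL1 and 15.4% for PMP22 of theirs in the same cells, and the interval of PMP22 overlapped that of ERBB3. After thinning, 7.23% (4.27 to 11.3) of NNE cells and 2.45% (1.78 to 3.27) of NEP cells held an ERBB3 UMI. The order of the subclusters at day 15 was ENCC 2′ at 116 CPM, ENCC 1′ at 104, ENCC 3′ at 89.6 and ENCC 4′ at 72.6. The intervals of ENCC 3′ and ENCC 4′, a subcluster of 138 cells, overlapped. Outside ENCCs the gene lay between 2.49 and 7.54 CPM at day 15, with overlapping intervals.

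NPR3 encodes the clearance receptor that takes up natriuretic peptides, from chr5:32690872-32791720. It was the steadiest member, since ENCCs held 77.4 CPM (74.6 to 80.3) in the first library against 66.7 (64.6 to 68.9) in the second. Its levels in ENCC 1, ENCC 2 and ENCC 3 were 82.8, 81.0 and 77.4 CPM and overlapped, and ENCC 4 was lower at 51.4 CPM (40.1 to 64.8). At day 15 the outlying subcluster was ENCC 4′ at 105 CPM (89.2 to 123), above ENCC 2′ at 67.8, ENCC 1′ at 64.7 and ENCC 3′ at 61.3, whose neighbours overlapped. Outside ENCCs NPR3 was highest in CP at day 10, at 17.5 CPM (12.8 to 23.6), and in CP1 at day 15, at 15.1 CPM (10.6 to 20.9). The CP1 value was 22.6% (15.8 to 31.3) of the ENCC level, where the other 7 members stood between 3.18% and 7.05% in the same cells. The interval of SPP1 overlapped that of NPR3.

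SPP1 encodes osteopontin, a secreted phosphoprotein that binds integrins and CD44, from chr4:87975714-87983411. At day 10 it was high in ENCCs at 203 CPM (198 to 207), and by day 15 the level was 13.2 CPM (12.2 to 14.2). ENCC 3 held the most at day 10, 331 CPM (307 to 355), followed by ENCC 1 at 216, ENCC 2 at 184 and ENCC 4 at 139, with no overlap between neighbours. The other classes of that library held 53.8 CPM in CP, 23.7 in NEP and 14.6 in NNE. At day 15 the level was 15.9 CPM in ENCC 1′, 10.9 in ENCC 2′ and 6.47 (4.84 to 8.46) in ENCC 3′. ENCC 3′ was thus at the level of the NEP cluster, 6.97 CPM (3.01 to 13.7). ENCC 4′ kept the most, 51.5 CPM (40.7 to 64.2), and 15.2% (9.67 to 22.3) of its thinned cells held an SPP1 UMI against 2.48% (1.47 to 3.88) in ENCC 3′. The 250 bases before the SPP1 start are shown because SPP1 had the largest difference between stages; they are RefSeq sequence of GRCh38.p14, chr4:87975464-87975713, plus strand. In every sequence printed here capitals mark a match, on either strand, to the TATA box word TATAAA, the SOX factor word ACAAAG, the MITF word CATGTG, the general E-box CACGTG, the CCAAT box or the AP-1 word TGANTCA. SPP1 held no match, so all its letters are lower case:
SPP1: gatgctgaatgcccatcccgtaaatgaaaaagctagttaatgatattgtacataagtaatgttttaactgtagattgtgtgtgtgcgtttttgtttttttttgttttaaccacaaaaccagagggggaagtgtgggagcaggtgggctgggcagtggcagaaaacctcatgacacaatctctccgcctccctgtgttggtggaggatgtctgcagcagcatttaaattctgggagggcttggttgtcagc

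PRSS56 encodes a secreted serine protease. It had the largest increase between stages among the members, with 29.5 CPM (27.8 to 31.3) in ENCCs at day 10 and 259.7 CPM (255 to 264) at day 15. ENCC 3 at 35.2 CPM and ENCC 1 at 32.7 overlapped at day 10, as did ENCC 2 at 26.3 and ENCC 4 at 21.7. At day 15 the levels were 303 CPM in ENCC 4′, 275 in ENCC 1′, 258 in ENCC 2′ and 224 in ENCC 3′, and the first 2 overlapped. The gene was scarce elsewhere at day 10, at 7.18 CPM in CP, 1.78 in NEP and 1.08 in NNE. At day 15 it was 13.8 CPM in CP1, 11.3 in NEP, 10.7 in Mes and 29.9 in CP2, with all intervals overlapping. The CP2 value rested on 12 UMIs in 3 of 43 cells.

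MOXD1 encodes a relative of the enzyme that converts dopamine to noradrenaline and has been used as a crest mark. The gene spans chr6:132296055-132401475. Its levels ran beside those of PRSS56, from 17.6 CPM (16.3 to 19.0) in day 10 ENCCs to 101 CPM (98.6 to 104) at day 15. At day 10 it was 19.2 CPM in ENCC 1, 19.1 in ENCC 3 and 18.6 in ENCC 2, which overlapped, and 3.62 (1.18 to 8.45) in ENCC 4. That last value came from 5 UMIs and overlapped the 2.35 CPM of NEP. At day 15 ENCC 2′ at 108 CPM, ENCC 1′ at 108 and ENCC 4′ at 105 overlapped, and ENCC 3′ stood lower at 64.9 CPM (59.5 to 70.7). The upstream letters of PRSS56 and MOXD1 are set together because these 2 genes had the most alike profiles of all member pairs, as described further on. The PRSS56 sequence is chr2:232520138-232520387 on the plus strand and the MOXD1 sequence chr6:132401476-132401725 on the minus strand, both from RefSeq on GRCh38.p14:
PRSS56: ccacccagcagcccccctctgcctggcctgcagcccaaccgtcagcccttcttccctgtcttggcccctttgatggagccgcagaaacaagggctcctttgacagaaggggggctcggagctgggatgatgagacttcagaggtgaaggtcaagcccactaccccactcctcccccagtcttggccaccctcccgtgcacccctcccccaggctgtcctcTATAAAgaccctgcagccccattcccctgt
MOXD1: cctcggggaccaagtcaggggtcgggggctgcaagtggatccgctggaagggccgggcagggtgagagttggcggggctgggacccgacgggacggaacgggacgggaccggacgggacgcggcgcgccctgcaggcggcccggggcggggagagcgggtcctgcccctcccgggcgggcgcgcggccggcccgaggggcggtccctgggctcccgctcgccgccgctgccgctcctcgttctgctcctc
The printed PRSS56 window held 1 of the searched words, TATAAA, whose first letter lies 30 bases before the start. PRSS56 had a second listed start, not printed, and the same TATAAA lies 105 bases before that one. Of 35116 upstream windows of 250 bases in the same table, 10.7% held TATAAA on either strand. MOXD1 held none, and 79.2% of its letters were G or C against 63.2% in PRSS56, 44.8% in SPP1 and a median of 58% over all windows. The SOX word was found in 13.7% of windows, the MITF word in 9.42%, the general E-box in 6.34%, the CCAAT box in 32.0% and the AP-1 word in 6.57%. The general E-box reads the same on both strands, and no searched word is contained in another. The table had windows for 6 of the 8 members and none for S100B or ERBB3.

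ECEL1 encodes a membrane protein of the neprilysin family that injured neurons are known to switch on. ENCCs held 31.4 CPM (29.6 to 33.3) in the first library and 68.8 (66.6 to 71.0) in the second. It was the only member whose 4 day 10 subclusters all overlapped, between 31.9 CPM in ENCC 4 and 36.5 in ENCC 3. At day 15 it was 80.5 CPM in ENCC 1′, 68.7 in ENCC 2′, 62.0 in ENCC 4′ and 43.3 (38.9 to 48.1) in ENCC 3′. CP cells held 13.2 CPM (9.06 to 18.5) at day 10, which was 41.9% (28.8 to 58.8) of the ENCC level, where the other 7 members stood between 11.3% and 26.6%. The intervals of SPP1, NPR3, PRSS56 and PMP22 overlapped that of ECEL1. The CP class also carried 1204 CPM of ENCC markers, whose part in this was not tested. In CP2 at day 15 ECEL1 was at 27.4 CPM (13.7 to 49.0), from 11 UMIs spread over 9 of 43 cells. There S100B and ERBB3 had 1 UMI each and PRSS56 had 12. ECEL1 was at 39.8% (19.9 to 71.2) of its ENCC level in CP2, and SPP1 at 56.6% (11.7 to 165) from 3 UMIs. The leading genes of CP2 included PRPH and TAC1 of peripheral and sensory neurons and also PAX6, a NEP marker. Its neuron markers summed to 6649 CPM, and their part in the ECEL1 level was not tested. ECEL1 and PRSS56 are neighbours: ECEL1 spans chr2:232479827-232487834 and PRSS56 chr2:232520388-232525716 in GRCh38.p14, 32553 bases apart with no other protein-coding gene between them. The nearest genes outside the pair were low in ENCCs. ALPI, on the ECEL1 side, held 0 UMIs at day 10 and 0.0358 CPM at day 15, and ALPG, the next gene beyond it, was not analysed here. CHRND, which starts 443 bases after PRSS56, held 3.36 CPM (2.79 to 4.001) and then 7.79 (7.07 to 8.56), a log2 difference between stages of 1.01, and CHRNG beyond it was at 0.0541 and 0 CPM.

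S100B encodes a calcium-binding protein that marks Schwann cells and enteric glia, from chr21:46598604-46605082. Day 10 ENCCs held 92.7 CPM (89.6 to 95.9) and day 15 ENCCs 171 (168 to 175). ENCC 1 at 102 CPM and ENCC 2 at 97.7 overlapped, ENCC 3 was lower at 68.5, and ENCC 4 was the lowest at 29.7 (21.3 to 40.3). At day 15 the 4 subclusters stood apart from each other: ENCC 3′ held 359 CPM (346 to 372), ENCC 2′ 172, ENCC 4′ 121 and ENCC 1′ 95.3. A UMI was found in 56.3% (52.6 to 59.9) of thinned ENCC 3′ cells and in 22.5% (20.5 to 24.6) of ENCC 1′ cells. The sum of pigment cell genes was highest in the same subcluster: the 7 melanoblast markers summed to 793 CPM in ENCC 3′, 332 in ENCC 4′, 135 in ENCC 2′ and 99.1 in ENCC 1′. All 7 were detected in ENCC 3′, led by PMEL, an organelle protein of melanosomes, at 551 CPM, MLANA at 96.8 and MITF, the lineage's transcription factor, at 83.7, while TYR and TYRP1 were at 0.61 and 0.12 CPM. MITF was higher in ENCC 4′, at 116 CPM (99.6 to 135), and the intervals of DCT and KIT overlapped between ENCC 3′ and ENCC 4′. Of the 727 cells in ENCC 3′, 42 had no UMI of any melanoblast marker, and S100B was at 326 CPM (275 to 383) in those and at 361 CPM (347 to 374) in the other 685. Cells of ENCC 2′ without such a UMI held 143 CPM (137 to 150) and those with one 201 CPM (193 to 208). A cell without such a UMI can still express the markers, so this split does not tell pigment cells from others. The part of pigment cells in the S100B levels was not tested. Outside ENCCs S100B was at 14.7 to 15.2 CPM in NEP and CP and 4.87 in NNE at day 10, and between 2.49 and 8.79 CPM at day 15.

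PMP22 encodes a small membrane protein of compact peripheral myelin that is also made in other cell types, from chr17:15229779-15265326. ENCCs of day 10 held 10.6 CPM (9.53 to 11.7) and those of day 15 held 60.3 (58.2 to 62.3). Day 10 subclusters ran from 11.6 CPM in ENCC 1, through 10.5 and 10.2 in ENCC 2 and ENCC 3, to 4.34 (1.59 to 9.45) in ENCC 4, and all neighbours in that order overlapped. NEP cells held 6.13 CPM (4.90 to 7.57), which was 58.0% of the ENCC level, where the other members stood between 6.03% and 15.9%. The share of thinned cells with a UMI was 3.37% (2.89 to 3.92) in ENCCs and 1.84% (1.27 to 2.57) in NEP. At day 15 PMP22 was 66.4 CPM in ENCC 3′, 63.3 in ENCC 2′, 54.9 in ENCC 1′ and 45.5 in ENCC 4′. Mesenchymal cells held 23.2 CPM (12.3 to 39.6), from 13 UMIs in 10 of 47 cells, above the 2.93 CPM (1.18 to 6.04) of CP1, while the intervals of NEP and CP2 overlapped it.

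Between day 10 and day 15 the members did not move as one group. In ENCCs 4 of 8 were at least 2-fold higher at day 15, beside 8.26% of the 9257 genes with at least 5 CPM at either stage, and 1 was at least 2-fold lower, beside 6.02%. PRSS56 was 8.79-fold higher, with a log2 difference of 3.09 (3.01 to 3.18) that ranked 37 from the top of all these genes. MOXD1 was 5.75-fold and PMP22 5.71-fold higher, at log2 differences of 2.46 and 2.41. ECEL1 was 2.19-fold higher, at a log2 difference of 1.11 (1.01 to 1.20). S100B and ERBB3 were also higher but stayed under 2-fold, at log2 differences of 0.88 (0.82 to 0.93) and 0.63 (0.56 to 0.69). S100B passed 2-fold with TMM scaling, at 1.06, among all deposited cells, at 1.13, and among cells in G1, at 1.01. NPR3 was slightly lower, at -0.21 (-0.28 to -0.14), and its direction turned among all deposited cells, at 0.15. That setting does not measure ENCCs alone, since ENCCs were 4921 of 9627 deposited cells at day 10 and 4934 of 6320 at day 15. SPP1 was the only member far lower at day 15, at a log2 difference of -3.85 (-3.95 to -3.74), rank 10 from the bottom of 9257 genes. The median over all these genes was -0.14, or 0.04 with TMM scaling, and the members lay from -3.71 to 3.23 relative to the former.

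**Figure D3:**
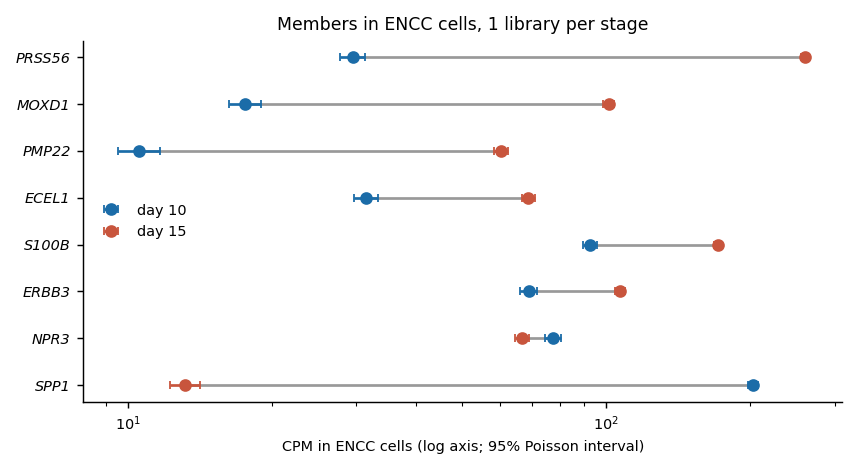
Level of each member in all ENCCs at day 10 (blue) and day 15 (red), in CPM on a log axis, ordered by the log2 difference between stages. Points are 1 library each with 95% Poisson intervals, and grey lines join the stages. PRSS56, MOXD1 and PMP22 shift furthest to the right, from 29.5 to 259.7, 17.6 to 101 and 10.6 to 60.3 CPM, and SPP1 alone shifts far to the left, from 203 to 13.2 CPM.

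The shares of cells followed the levels at equal depth. After thinning, PRSS56 was found in 8.01% (7.27 to 8.80) of day 10 ENCCs and 46.5% (45.1 to 47.9) at day 15. MOXD1 went from 4.76% to 25.2% and SPP1 from 41.8% to 3.87%. Unthinned, the PRSS56 shares were 16.5% and 78.9%, the MOXD1 shares 11.4% and 62.7% and the SPP1 shares 66.4% and 11.9%, at median depths of 7004 and 11082 UMIs. In NEP cells, given for comparison although they may express some members, between 0.0556% and 4.51% held a UMI of a given member at day 10. In the day 15 library the range was 0 to 3.85%, over only 104 cells. The SPP1 share in day 15 ENCCs overlapped that in NEP, 1.92% (0.23 to 6.77), but stood above the 1.24% (0.41 to 2.88) of all other kept cells. At least 1 member was found in 75.0% of thinned ENCCs at day 10 and in 88.6% at day 15, against 12.5% and 17.3% of NEP cells. At least 3 members were found in 12.1% and 27.2% of ENCCs.

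**Figure D4:**
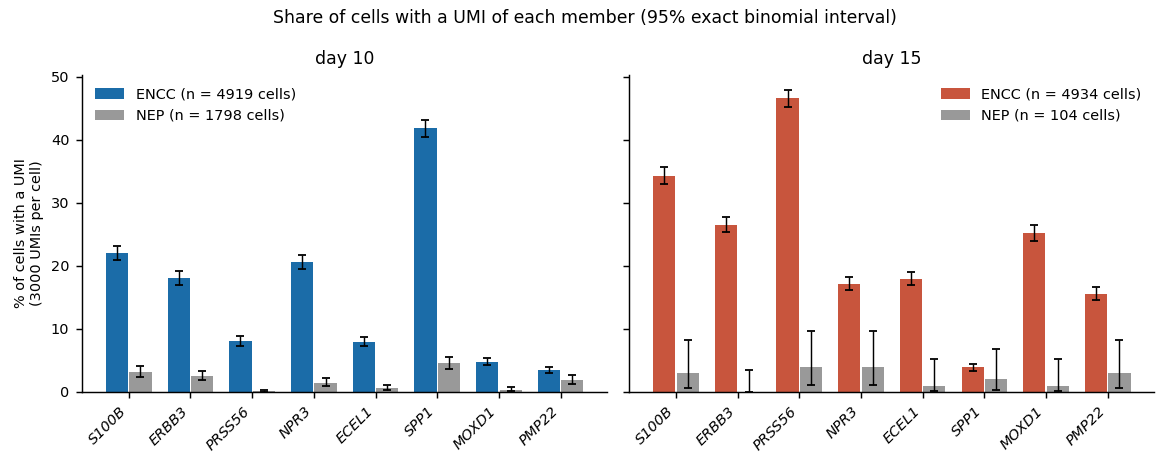
Percent of cells with at least 1 UMI of each member after thinning to 3000 UMIs per cell, in ENCCs (coloured) and in the cluster deposited as NEP (grey) at day 10 (left) and day 15 (right). Error bars are 95% exact binomial intervals. PRSS56 reaches 46.5% of ENCCs at day 15, SPP1 reaches 41.8% at day 10 and 3.87% at day 15, and ERBB3 was in 0 of 104 NEP cells at day 15, with an interval that reaches 3.48%.

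Within ENCCs the members differed over the numbered subclusters. Point values differed more at day 10 for ERBB3, PRSS56, MOXD1 and PMP22 and at day 15 for S100B, NPR3, ECEL1 and SPP1. The intervals of these differences were apart between stages for ERBB3 and SPP1 and narrowly for MOXD1, and overlapped for the others. At day 10, 5 of 8 differed at least 2-fold between their highest and lowest subcluster, beside 16.1% of 9405 genes, and at day 15 it was 2 of 8, beside 28.2% of 9202 genes. The clusters were made from the same cells, so these counts are descriptions. All 8 members were lowest in ENCC 4 at day 10, although the intervals of ECEL1 and PRSS56 there overlapped those of ENCC 1, 2 and 3, and that of PMP22 those of ENCC 2 and 3. The share of all genes that were lowest in ENCC 4 was not computed. ENCC 4 was also the smallest numbered subcluster, so nothing is read from this count. The 5 members that differed at least 2-fold were S100B, ERBB3, SPP1, MOXD1 and PMP22. Their log2 differences lay between 1.24 (0.07 to 2.40) for PMP22 and 2.13 (0.86 to 3.40) for MOXD1. In ENCC 4 these 2 genes had only 6 and 5 UMIs. ENCC 4 had 187 cells with the same median depth as all ENCCs, 7004 UMIs. Its ENCC markers summed to 1892 CPM, against 2016 to 2199.6 in ENCC 1 to 3. Placode markers summed to 36.9 CPM there and to 7.0 to 8.0 in the other 3, all 7 being detected, and their part in the lower levels was not tested. At day 15 the members were lowest in different places: PRSS56, NPR3, ECEL1, SPP1 and MOXD1 in ENCC 3′, ERBB3 and PMP22 in ENCC 4′ and S100B in ENCC 1′. The 2 that passed were S100B, at a log2 difference of 1.90 (1.82 to 1.99), and SPP1, at 2.81 (2.31 to 3.32).

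The 256 day 10 ENCCs without a subcluster number held less of every member than ENCCs as a whole, from 21.2% of the ENCC level for ECEL1 to 42.2% for S100B. NEP markers summed to 1110.5 CPM in these cells, close to the 1402 CPM of the NEP class, against 14.5 to 23.1 CPM in the numbered subclusters. Their part in the lower levels was not tested.

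Few pairs of members were seen together more or less often than their shares gave, by the rule used here. Over the 28 pairs in thinned ENCCs, the share of cells with one member was apart between cells with and without the other in 5 pairs at day 10 and in 2 at day 15, judged by intervals that did not overlap. This rule can miss weaker links, since some members were in few thinned cells, such as PMP22 in 3.37% at day 10 and SPP1 in 3.87% at day 15. Overlap is therefore not read as absence of a link. PRSS56 and ECEL1 were the pair set apart upwards at both stages. At day 10, 12.1% (9.01 to 15.7) of cells with an ECEL1 UMI held PRSS56 against 7.66% (6.90 to 8.47) of those without, and at day 15 it was 53.3% (49.9 to 56.6) against 45.04% (43.5 to 46.6). The same direction was seen within ENCC 1 and ENCC 2 and within ENCC 1′, ENCC 2′ and ENCC 3′, but not within ENCC 3, ENCC 4 or ENCC 4′, which had 17 to 29 cells with ECEL1. The intervals were apart within ENCC 2, ENCC 1′ and ENCC 2′ and overlapped in the others. SPP1 was found with S100B and with ERBB3 more often than without them at day 10, and with ECEL1 less often: 35.0% (30.2 to 39.9) of cells with ECEL1 held SPP1 and 42.3% (40.9 to 43.8) of those without. Within each of the 4 day 10 subclusters the SPP1 share was also lower with ECEL1, but the intervals overlapped. With S100B and with ERBB3 it was higher within each of the 4, and these intervals overlapped too. The counts over all ENCCs include the cells without a number, whose part in these differences was not tested. MOXD1 with S100B was the remaining pair of day 10, apart within ENCC 1 but with overlapping intervals and a lower share within ENCC 2. NPR3 with PRSS56 was the pair set apart downwards at day 15, at 40.6% (37.3 to 44.0) against 47.7% (46.2 to 49.3). Over all ENCCs of a stage these differences were at most 10.6 percentage points. Within single subclusters some were larger, such as 13.2 points for MOXD1 with S100B in ENCC 1.

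Some members differed more than others between the cell cycle phases that the authors scored. In day 10 ENCCs S100B was at 94.9 CPM (89.7 to 100.4) in G1, 110.5 in S and 72.9 (68.2 to 77.9) in G2M, and at day 15 at 193, 186 and 121 (115 to 127). It was lower in G2M at both stages. ERBB3 and PRSS56 were higher there at day 15, at 128 CPM in G2M against 92.1 in G1 for ERBB3 and at 326 against 262 for PRSS56. PRSS56 was also higher in G2M at day 10, at 34.4 CPM (31.2 to 37.8) against 25.8 (23.1 to 28.8) in G1. ECEL1 was higher in G2M than in G1 at both stages, at 36.8 against 25.0 CPM and at 78.9 against 63.2 CPM. The part of phase in the joint detection of PRSS56 and ECEL1 was not tested. SPP1 was lowest in S at both stages, at 162 CPM at day 10 and 9.59 at day 15. These differences were all smaller than the stage differences of PRSS56, MOXD1, PMP22 and SPP1. Median depth was 6345.5 UMIs in G1 and 8439 in G2M at day 10, and 9899.5 and 13050.5 at day 15. The parts of depth and of subcluster in the differences between phases were not tested.

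Profiles over the 17 classes of both libraries grouped the members. Classes share a library and its depth, so these correlations of log2(CPM + 1) are descriptions. The pair most alike was PRSS56 and MOXD1 at a Pearson r of 0.97, and each had the other as the most similar of 7739 ranked genes, followed for both by MEGF10, an engulfment receptor. S100B, ERBB3 and NPR3 had r between 0.88 and 0.93 with each other, and all 3 were closest to FOXD3, a crest transcription factor, at r of 0.94, 0.93 and 0.97. ERBB3's next gene was S100B, S100B's was LMO4 and NPR3's was FOXD3-AS1. ECEL1 was closest to CELF2 and PTPRZ1 at r of 0.94 and 0.93, and PMP22 to CMTM3 and MOXD1 at 0.91 for both. SPP1 stood apart, with r from -0.05 to 0.55 with the other 7, and was closest to PUF60 and CDK5RAP3 at 0.91 and 0.89. Of these 16 places, 5 were the same with Spearman correlation, 0 with day 10 classes alone and 2 with day 15 classes alone, so these names depend on the measure and on the classes that enter.

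Other genes of the lineage, and the partners of the members, were taken from fixed lists. Of 24 Schwann precursor and immature Schwann genes, 18 reached 5 CPM at day 10. In ENCCs 15 of them were at least 2-fold higher and 0 were lower, beside 2% and 12.8% of all genes. Of 21 at day 15, 14 were higher and 4 lower, beside 3.4% and 17.4% of all genes. Genes of the list, SOX10 and FOXD3 among them, are also ENCC markers, and the classes were made from these cells. SOX10, a transcription factor of crest and glia, was at 119.7 and 103 CPM in ENCCs, and ZEB2, another crest transcription factor, at 145 and 129. Between stages 3 of 20 list genes were at least 2-fold higher and 4 lower, beside 8.26% and 6.02% of all genes. The median log2 difference was -0.05, and nothing is read from these stage counts.

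Boundary cap genes were sparse. EGR2, the transcription factor that defines boundary cap cells, had 7 UMIs in day 10 ENCCs, 0.19 CPM (0.08 to 0.39), and 339 at day 15, 6.07 CPM (5.44 to 6.75), with 0 UMIs in the other kept cells of day 15. HEY2, a Notch target of these cells, was at 4.41 CPM (3.76 to 5.14) and 18.7 (17.6 to 19.8). SEMA6A, which guides axons at the root, went the other way, from 17.3 to 7.93 CPM. Of the 8 genes, 4 reached 5 CPM at day 10, of which 0 were at least 2-fold higher and 3 lower in ENCCs, and at day 15 it was 2 higher and 2 lower of 4. Of 12 mature glia genes, 4 reached 5 CPM at day 10, of which 1 was higher and 2 were lower in ENCCs, and 1 of 2 was higher at day 15. The higher one was CNP, an enzyme of myelinating cells, at 123 and 78.6 CPM in ENCCs. Over all genes 2% were higher and 12.8% lower in ENCCs at day 10, and 3.4% and 17.4% at day 15. So few genes of these 2 lists entered that nothing is read from their counts. APOE, a lipid carrier of glia, was at 4.66 and 28.7 CPM in ENCCs against 16.7 and 19.3 in the other kept cells.

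**Figure D5:**
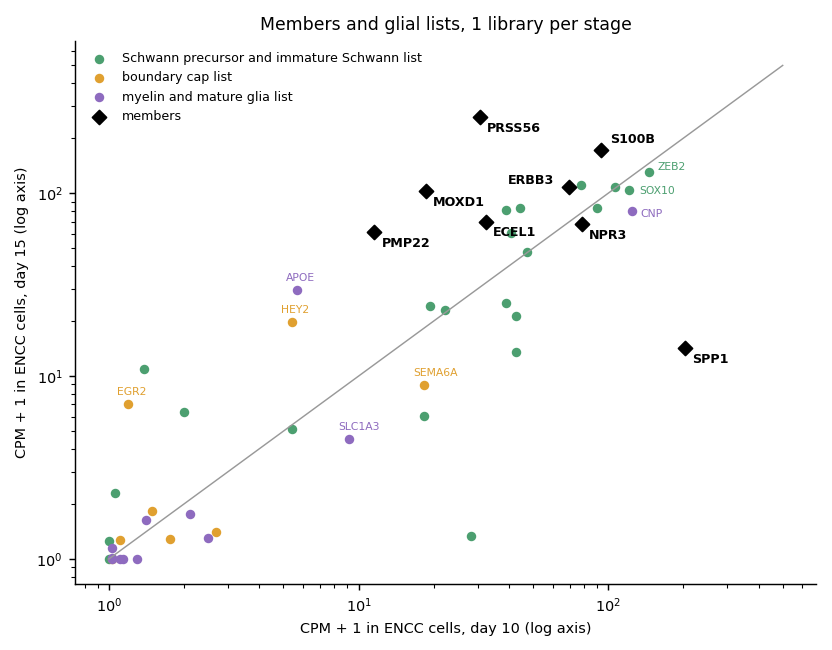
CPM + 1 in ENCCs at day 10 against day 15, both log axes, with a grey line of equality. Black diamonds are the 8 members and coloured points are genes of 3 glial lists that are reported here, with 1 library per stage and no error bars. PRSS56, MOXD1 and PMP22 lie furthest above the line among the members and SPP1 furthest below it, and EGR2 and HEY2 lie above it at low levels.

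Partners of the members were measured as well. ERBB2, with which ERBB3 signals, was at 7.50 CPM (6.64 to 8.43) and 10.0 CPM (9.23 to 10.9) in ENCCs. Its ligand gene NRG1 was nearly absent from ENCCs, at 0.325 and 0.358 CPM, and was at 3.86 CPM in the other kept cells of day 10 and 26.5 CPM (21.9 to 31.7) in those of day 15. Of the 7 genes of that list 1 reached 5 CPM at day 10 and 3 at day 15. None of them was at least 2-fold higher in ENCCs, beside 2% and 3.4% of all genes. For NPR3, the natriuretic peptide gene NPPC was at 1.03 and 1.06 CPM in ENCCs, and the signalling receptor NPR2 at 0.79 and 0.91 CPM, against 20.7 CPM (16.7 to 25.3) in the other kept cells of day 15. Of the 9 osteopontin receptor genes, ITGA4 was at 39.7 and 59.5 CPM in ENCCs, against 7.12 and 8.002 in the other kept cells. ITGB1 was at 57.1 and 182 CPM, below the 95.8 and 220.1 of the other kept cells. ITGAV was at 11.9 and 18.9 CPM, and CD44 had 1 UMI at day 10 and 19 at day 15. So ITGA4 and ITGB1 were higher at day 15, at log2 differences of 0.57 and 1.65, where SPP1 was lower.

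Relatives of the members were measured too. Of 10 other S100 genes, 6 reached 5 CPM at each stage, and 5 of them at day 10 and 6 at day 15 were at least 2-fold lower in ENCCs, where 12.8% and 17.4% of all genes were. S100A13 was at 56.5 CPM in ENCCs and 397 in the other kept cells of day 10, and S100A16 at 14.8 and 155. S100A10 was the exception at day 10, at 147 and 109 CPM, and was lower in ENCCs at day 15, at 198 and 524. EMP2, the most abundant relative of PMP22, was at 30.4 CPM at day 10 and 19.6 at day 15 in ENCCs, against 34.1 and 8.23 in the other kept cells. It was thus lower at day 15 where PMP22 was higher, and at least 2-fold higher in ENCCs at day 15 as PMP22 was. PAM, an enzyme of the same family as MOXD1, was at 15.2 and 22.0 CPM in ENCCs and 15.7 and 61.6 CPM in the other kept cells. In the neprilysin family ECE2 was at 6.06 and 3.12 CPM in ENCCs, and of its 6 genes only 1 reached 5 CPM at day 10 and 2 at day 15. None of them was at least 2-fold higher in ENCCs, beside 2% and 3.4% of all genes.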

How the data were processed

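Single-cell 3′ RNA libraries (10x Genomics Chromium) were made from H9 cultures at day 10 and day 15. The authors deposited UMI counts per gene and cell, which are whole numbers without normalization, and metadata with UMI and gene counts, a phase, a cell type, a subcluster and the percent of mitochondrial and ribosomal UMIs. Per the labels the processing used Cell Ranger, Seurat 4.0.4 and GRCh38, whereas the methods name kallisto and bustools; the annotation is not given in the sources used here. The authors labelled 2332 and 984 cells as low quality, on UMIs, genes and mitochondrial percent, without deleting them, and clustered each library on its own. No doublet caller was run here; leaving out the 6% deepest cells was an alternative.

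CPM was computed here from summed counts of a class over all UMIs of its cells. Log2 ratios used CPM + 1, which understates changes of low genes, and a gene entered a background share at 5 CPM in either group. Intervals are 95% Poisson or exact binomial (Clopper-Pearson) and treat UMIs as independent molecules. Cells under 3000 UMIs were left out of thinning, which took 2 ENCCs and 13 NEP cells of day 10. Likeness was a Pearson correlation over classes of at least 20 cells, among genes with 20 CPM in 1 class, mitochondrial and ribosomal genes left out, with 2 genes named per member. At most 4 genes per list were named, those highest in ENCCs, with the ligands and receptors of members. MITF, PMEL, MLANA, TYR, TYRP1, DCT, KIT, PAX6, PRPH and TAC1 were named after their values were seen. Some genes of the lists are not reported here. The members and lists were chosen with earlier results of these data known. The ratio and interval code was tested on simulated data with known folds. Python 3.11.15, numpy 2.4.6, scipy 1.17.1, pandas 2.3.3, R 4.3.3 and edgeR 4.0.16 (TMM factors only) were used. Gene positions and upstream sequences are from RefSeq GRCh38.p14 tables.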

Additional observations from a re-analysis of the deposited data

How the results depend on the processing

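With 1 library per stage, leaving out a replicate would leave no library at that stage, so no such value exists. No paired analysis was possible because each stage has 1 library and no test was run. The counts of members at or over 2-fold kept within 1.5 times their values under every alternative tried: another pseudocount (0.1 or 5 CPM), totals without mitochondrial and ribosomal protein genes, thinned cells, G1 cells, numbered subclusters only, the mean over the other types, TMM scaling, all deposited cells, and no deepest cells. Leaving out the 102 shared barcodes, and splitting cells by marker lists or subclusters, were chosen after seeing the data. The count of members higher in ENCCs at day 10 was 7 or 8, the eighth being PMP22, whose log2 difference lay between 0.61 and 1.40. The count of members higher at day 15 was 4 or 5, the fifth being S100B. The spread over day 10 subclusters was 4 or 5 members, and that over day 15 subclusters 2 throughout. Shares of cells depend on the depth chosen: at 5000 UMIs per cell PRSS56 was in 11.5% of day 10 and 60.7% of day 15 ENCCs, SPP1 in 57.2% and 5.98%. Depth limits values in CP2, Mes and NEP of day 15, which have 43, 47 and 104 cells.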

Other observations

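Cells that the authors removed carried the members at lower levels than ENCCs. At day 10 the 2332 removed cells held between 36.9% of the ENCC level for SPP1 and 63.8% for PMP22, and at day 15 the 984 removed cells held between 47.1% for S100B and 62.1% for ERBB3. No cell type is given for these cells. Their median depth was 3679 UMIs at day 10 and 21367 at day 15.

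The number of UMIs per cell varied more than a Poisson count for some members in thinned ENCCs. The variance divided by the mean was 1.27 for S100B and 1.34 for SPP1 at day 10, and 1.48 for S100B and 1.504 for PRSS56 at day 15. For NPR3 it was 1.00 and 1.08, and for ERBB3 1.04 and 1.07.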
